A study of Mus musculus with 11 samples.

Results

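The enzymes that hydroxylate, escort, trim and cross-link collagen were followed here in mouse JB6 skin cells grown attached to plastic or as colonies in soft agar. Members were all probe sets of the Affymetrix array whose annotated symbol was exactly Lox, Loxl1, Plod1, Plod2, Plod3, P4ha1, P4ha2, Serpinh1, Pcolce or Bmp1. All 10 genes were on the array, through 18 of its 20380 single-gene probe sets, and they were 10 of 12393 genes measured. Each gene was read through its brightest probe set, and other probe sets are given beside the results that turn on them. Matching used gene names and no signal, but the list of genes was chosen with earlier results of these data known. The chaperone Serpinh1 and the enhancer protein Pcolce are counted among the enzymes below.

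Collagen chains are modified while they fold in the endoplasmic reticulum. Prolyl 4-hydroxylases form the hydroxyproline that stabilises the triple helix, lysyl hydroxylases form hydroxylysine, which carries sugars and takes part in later cross-links, and the chaperone HSP47, encoded by Serpinh1, binds the folded helix. Outside the cell, bone morphogenetic protein 1 (Bmp1) removes the C-terminal propeptide of fibrillar procollagens with help from the procollagen C-endopeptidase enhancer (Pcolce), and lysyl oxidase (Lox) and lysyl oxidase-like 1 (Loxl1) oxidise lysines so that fibrils, and in the case of Loxl1 above all elastin, become cross-linked.

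The 11 arrays fell into 4 groups. The parental line, JB6 clone 41-5A, carried the label of treatment with basic fibroblast growth factor (bFGF), is written here as bFGF-JB6, and gave 3 monolayer arrays and 3 arrays of colonies. Cells of RT101, a tumour-forming JB6 variant that received no growth factor, gave 2 monolayer arrays and 3 arrays of colonies. Colonies were taken from soft agar on day 7, and the bFGF-JB6 cells in agar had 10 ng/ml bFGF. For the monolayers labelled as bFGF-treated no dose or time is given, so colonies and monolayers may differ in exposure as well as in anchorage. The lines differ in both clone and growth factor, which cannot be told apart. The design asks which expression changes colony formation in the 2 lines shares, each set against its own monolayer. Nothing in the labels ties the arrays of a group to separate cultures. The p-values therefore measure a spread between arrays that may be technical.

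Signals are log2 values, in which a step of 1 is a doubling, and a probe set's level cannot be compared with that of another probe set. Array medians ran from 5.82 to 5.95 and lower quartiles from 3.78 to 3.91. Within a group the correlation between arrays over all probe sets was 0.989 to 0.998. Of 11 keratinocyte markers, 5 lay below the lower quartile on every array, among them Cdh1, Trp63 and Epcam, and 0 lay above the median on all arrays, although JB6 is an epidermis-derived line. Of 12 fibroblast markers, 9 lay above the median on every array, among them Vim, Pdgfra and Col1a1, and 2, Thy1 and Fap, lay below the lower quartile on every array. The summed linear signal of the fibroblast markers was 28093 to 28450 in bFGF-JB6 monolayers, 28627 to 31042 in their colonies, 18889 to 19451 in RT101 monolayers and 26320 to 26692 in RT101 colonies. That of 10 macrophage markers was 591 to 605, 820 to 883, 278 to 280 and 323 to 352 in the same order. Of these 10, 6 lay below the lower quartile on every array, among them Ptprc and Adgre1, and 1, Cd14, lay above the median on every array. The part of either shift in summed signal in the enzyme changes was not tested.

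In bFGF-JB6 colonies 5 of the 10 enzymes rose and 0 fell at an adjusted p under 0.05 (limma, Benjamini-Hochberg over all genes), where 29.4% of all genes were called, 14.1% higher and 15.3% lower. Colony arrays lay wholly above monolayer arrays for 5 and wholly below for 0, against 18.7% and 19.1% of all genes. The rises were in Lox, Loxl1, Plod1, P4ha1 and P4ha2, but only Lox passed 2-fold. In RT101 colonies 7 rose and 1 fell, where 32.4% of all genes were called, 17.0% higher and 15.4% lower. Their colony arrays lay wholly above for 7 and wholly below for 1, against 27.9% and 28.2%. Of the calls only that of Pcolce passed 2-fold, with Bmp1 close beside it. The median change of the 10 genes was 0.25 in bFGF-JB6 colonies and 0.41 in RT101 colonies, against 0.03 and -0.01 over all genes. Loxl1, Plod1, P4ha1 and P4ha2 rose in both, which 706 of all genes (5.70%) also did. The number of enzymes called in bFGF-JB6 colonies rested on small changes. It was 2 without monolayer replicate 2 or without colony replicate 1, 3 without monolayer replicate 3 or colony replicate 2, 2 when only these 6 arrays were fitted, and 8 without the 2 arrays whose Gapdh control probes showed raised 3' signal, monolayer replicate 1 and colony replicate 3. In bulk RNA, fewer cells of a type and less RNA per cell cannot be told apart.

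**Figure D1:**
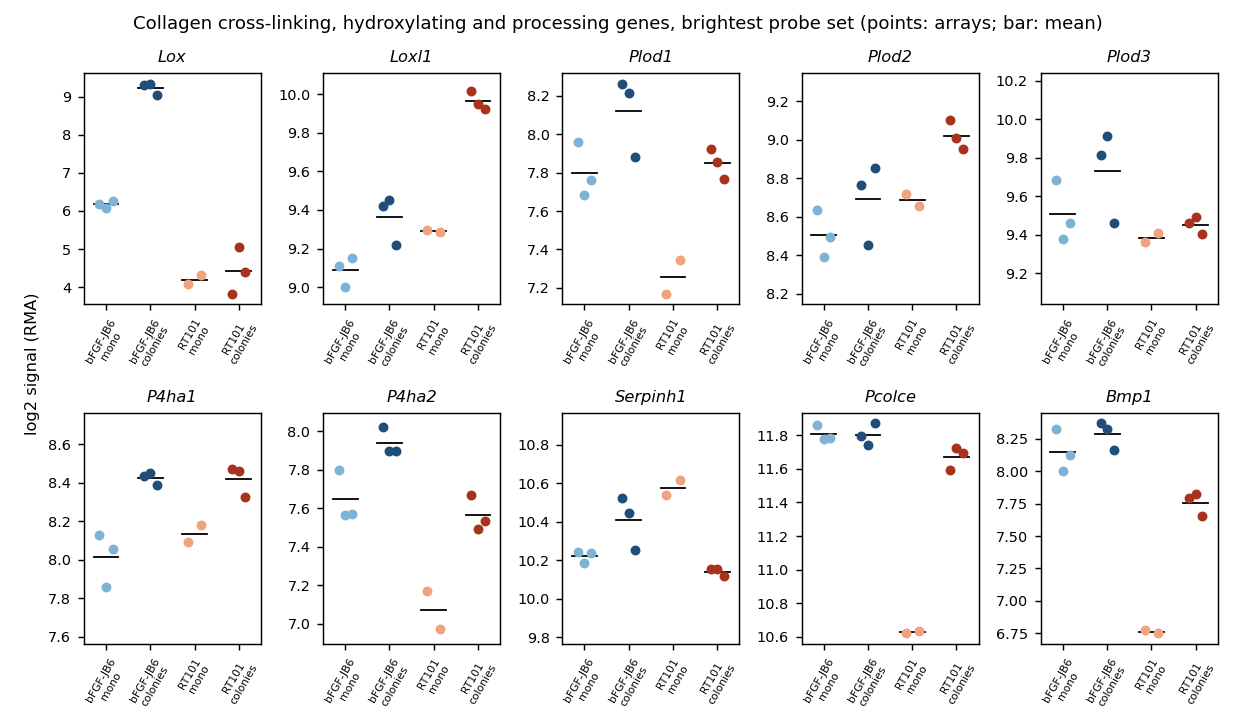
Log2 signal of the brightest probe set of each of the 10 enzymes (vertical axis, own scale per panel) on every array, by group, with bars at the group means. Lox in bFGF-JB6 colonies stands at 9.03 to 9.34 above the other 3 groups, and Pcolce and Bmp1 in RT101 monolayers stand below the other 3.

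**Figure D2:**
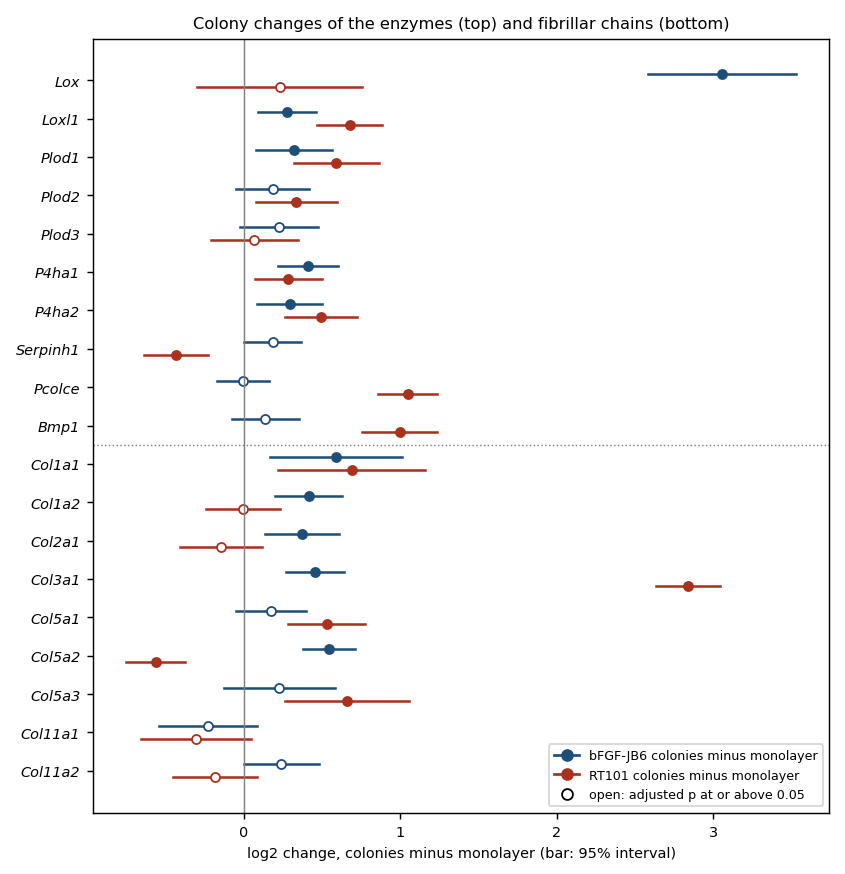
Log2 change from monolayer to colonies (horizontal axis) of each enzyme (above the dotted line) and fibrillar collagen chain (below it) in bFGF-JB6 and in RT101 cells, with 95% intervals from the limma fit and open circles where the adjusted p was 0.05 or more. The 2 lines are far apart for Lox (3.06 against 0.23), Pcolce and Bmp1, and lie on opposite sides of 0 for Serpinh1 and Col5a2.

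Lysyl oxidase gave the largest change of the 10 enzymes. Lox (probe set 1416121_at) had a signal of 6.19, 6.08 and 6.25 on the bFGF-JB6 monolayer arrays and 9.32, 9.34 and 9.03 on those of the colonies. In RT101 cells it was 4.08 and 4.31 in monolayers and 3.82, 5.05 and 4.40 in colonies. All bFGF-JB6 colony arrays lay above all others, the bFGF-JB6 monolayers came next, and the 2 RT101 groups overlapped near the lower quartile of the arrays. The change to bFGF-JB6 colonies was 3.06 (SE 0.22, adjusted p = 2.3e-07), which is 8.32-fold and rank 15 of 12393 genes by size of rise. That to RT101 colonies was 0.23 (95% interval -0.30 to 0.76, adjusted p = 0.561) with 2 of the 3 colony arrays above both monolayer arrays and 1 below them. The test of the difference between the lines' colony changes gave -2.83 (SE 0.33, adjusted p = 2.15e-05). A second Lox probe set rose by 2.77 in bFGF-JB6 colonies and differed between lines by -2.52 (adjusted p = 3.43e-05 over all probe sets). Another, between 2.50 and 3.31 on all arrays, was near the bottom of the scale and was called only between the lines' colonies, lower in RT101 (-0.41, adjusted p = 0.0338 over all probe sets).

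Loxl1 rose in both kinds of colony. Its signal (probe set 1451978_at) was 9.11, 9.0 and 9.15 in bFGF-JB6 monolayers, 9.42, 9.45 and 9.22 in their colonies, 9.30 and 9.28 in RT101 monolayers and 10.02, 9.95 and 9.93 in RT101 colonies. RT101 colonies were highest, with every array above those of the other groups, and bFGF-JB6 colonies and RT101 monolayers overlapped. The change was 0.68 in RT101 colonies (SE 0.096, adjusted p = 9.18e-05) and 0.28 in bFGF-JB6 colonies (SE 0.086, adjusted p = 0.027). The smaller of these passed the threshold only narrowly: its adjusted p was 0.0504 without monolayer replicate 1, 0.105 without monolayer replicate 2, 0.0771 without colony replicate 1 and 0.093 without colony replicate 2. The lines' changes differed by 0.40 (adjusted p = 0.0332), a call that was lost without any 1 of 7 arrays (adjusted p 0.0516 to 0.0883), and kept only without bFGF-JB6 monolayer replicate 2 or any 1 of the bFGF-JB6 colony arrays. Of the other cross-linking enzymes, 3 of 4 listed were measured. The oxidase Loxl4 fell by 0.68 in bFGF-JB6 colonies (adjusted p = 0.00169) and was also called lower in RT101 colonies, at -0.49. The RT101 call of Loxl4 was lost without either RT101 monolayer array or RT101 colony replicate 1 or 2 (adjusted p 0.0527 to 0.102). Loxl3 was higher by 1.15 in RT101 colonies (adjusted p = 6.08e-05) with -0.26 in bFGF-JB6 colonies (adjusted p = 0.192).

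The prolyl 4-hydroxylase alpha subunits P4ha1 and P4ha2, each the catalytic chain of its own form of the enzyme, were called higher in both colony comparisons, while HSP47 moved apart in the 2 lines. Their promoters are shown for that reason, as the 250 bases before the start site, 5' to 3' on the gene's strand, from RefSeq on GRCm38.p6. P4ha1 is at chr10:59323046-59323295 (plus strand), P4ha2 at chr11:54100674-54100923 (plus strand) and Serpinh1 at chr7:99353240-99353489 (minus strand). Capitals mark the hypoxia response element cores ACGTG and GCGTG, which read CACGT and CACGC where they lie on the opposite strand.
P4ha1: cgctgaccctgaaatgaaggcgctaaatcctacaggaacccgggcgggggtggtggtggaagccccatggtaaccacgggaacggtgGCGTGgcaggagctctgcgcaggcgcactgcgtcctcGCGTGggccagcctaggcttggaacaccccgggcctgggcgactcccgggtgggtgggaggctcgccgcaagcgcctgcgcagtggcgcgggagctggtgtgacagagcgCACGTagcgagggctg
P4ha2: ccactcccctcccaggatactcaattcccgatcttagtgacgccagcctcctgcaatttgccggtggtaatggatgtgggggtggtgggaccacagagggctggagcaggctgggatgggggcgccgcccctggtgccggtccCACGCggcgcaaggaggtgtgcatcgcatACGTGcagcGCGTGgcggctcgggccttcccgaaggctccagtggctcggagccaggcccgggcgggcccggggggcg
Serpinh1: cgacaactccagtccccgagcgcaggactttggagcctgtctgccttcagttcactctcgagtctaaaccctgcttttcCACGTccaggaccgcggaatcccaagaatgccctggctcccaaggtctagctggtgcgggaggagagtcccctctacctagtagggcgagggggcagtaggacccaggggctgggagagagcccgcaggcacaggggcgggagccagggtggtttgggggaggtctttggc
P4ha1 held ACGTG on the opposite strand 16 to 12 bases before the start, and GCGTG at 163 to 159 and 126 to 122. P4ha2 held ACGTG 78 to 74 bases before the start and GCGTG at 69 to 65 and, on the opposite strand, at 107 to 103. Serpinh1 held ACGTG once, on the opposite strand 171 to 167 bases before the start. Over both strands ACGTG was found in 4 of the 6 member promoters that the RefSeq table holds (P4ha1, P4ha2, Plod3 and Serpinh1) and in 16.6% of 32851 promoters of the same length, and GCGTG in 5 of 6 (all but Serpinh1) and 28.2%. The heat shock motif GAANNTTC was in 0 of 6 and in 6.69% of promoters. Lox, Loxl1, Plod2 and Bmp1 had no promoter entry and were not searched. A match is a stretch of letters, and binding was not measured.

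P4ha1 (probe set 1452094_at) stood at 8.13, 7.86 and 8.05 in bFGF-JB6 monolayers and at 8.43, 8.45 and 8.38 in their colonies. In RT101 monolayers it stood at 8.09 and 8.18, and in RT101 colonies at 8.47, 8.46 and 8.33. All colony arrays of both lines lay above all monolayer arrays, and neither the 2 kinds of colony nor the 2 kinds of monolayer were separated. The rise was 0.41 in bFGF-JB6 colonies (SE 0.089, adjusted p = 0.00301) and 0.28 in RT101 colonies (SE 0.099, adjusted p = 0.0424), with a difference between lines of -0.13 (95% interval -0.41 to 0.16). The RT101 call was lost without bFGF-JB6 monolayer replicate 3, either RT101 monolayer array or RT101 colony replicate 1 or 2 (adjusted p 0.0571 to 0.228), under median centring (adjusted p = 0.0897) and with each probe set tested by itself (adjusted p = 0.0518). The second P4ha1 probe set changed by 0.28 and 0.42 in the 2 lines and was called in neither, and with the mean of both probe sets the adjusted p was 0.105 and 0.132.

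P4ha2 rose from a different level in each line. Its arrays (probe set 1417149_at) read 7.80, 7.56 and 7.57 in bFGF-JB6 monolayers, 8.02, 7.89 and 7.90 in their colonies, 7.17 and 6.97 in RT101 monolayers and 7.67, 7.49 and 7.53 in RT101 colonies. RT101 monolayers were lowest and bFGF-JB6 colonies highest, and RT101 colonies and bFGF-JB6 monolayers overlapped between them. P4ha2 rose by 0.49 in RT101 colonies (SE 0.11, adjusted p = 0.00254) and by 0.29 in bFGF-JB6 colonies (SE 0.096, adjusted p = 0.0335). The latter call was lost without monolayer replicate 2 (adjusted p = 0.116) or 3 (0.122) or colony replicate 1 (0.101) or 2 (0.052). The lines' changes differed by 0.20 (95% interval -0.11 to 0.51, adjusted p = 0.354).

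Of the 3 lysyl hydroxylases, Plod1, which hydroxylates lysines in the helix, rose most in RT101 colonies. Its signal (probe set 1416289_at) was 7.96, 7.68 and 7.76 in bFGF-JB6 monolayers and 8.26, 8.22 and 7.88 in their colonies. It was 7.17 and 7.35 in RT101 monolayers and 7.92, 7.86 and 7.77 in RT101 colonies. RT101 monolayers lay below every other array, and the other 3 groups overlapped. The change was 0.59 in RT101 colonies (SE 0.13, adjusted p = 0.00233) and 0.32 in bFGF-JB6 colonies (adjusted p = 0.0487), where the arrays of the groups overlapped. The bFGF-JB6 call was kept only without monolayer replicate 1 or colony replicate 3 and was lost without any 1 of the other 9 arrays (adjusted p 0.0548 to 0.164).

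Plod2, the enzyme of the telopeptide lysines that give the stable cross-links of scar and bone, was called in RT101 colonies only. Its probe set 1416687_at stood at 8.64, 8.39 and 8.49 in bFGF-JB6 monolayers, 8.76, 8.45 and 8.85 in their colonies, 8.72 and 8.65 in RT101 monolayers and 9.10, 9.01 and 8.95 in RT101 colonies. RT101 colonies were highest on every array, RT101 monolayers lay just above bFGF-JB6 monolayers, and the bFGF-JB6 colonies overlapped both monolayer groups. The RT101 change was 0.34 (SE 0.12, adjusted p = 0.0482), and the bFGF-JB6 change was 0.18 (95% interval -0.049 to 0.42, adjusted p = 0.238). With single arrays left out the RT101 call was kept only without bFGF-JB6 monolayer replicate 1 or bFGF-JB6 colony replicate 2 or 3. It had an adjusted p of 0.0505 to 0.197 without any 1 of the other 8 arrays, and was also lost under median centring (0.111) and with each probe set tested by itself (0.0608). The second Plod2 probe set changed by 0.27 in bFGF-JB6 and 0.33 in RT101 colonies and was called in neither.

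Plod3, which also adds sugars to hydroxylysine, was called in neither line. Its arrays (probe set 1415901_at) read 9.68, 9.38 and 9.46 in bFGF-JB6 monolayers and 9.81, 9.91 and 9.46 in their colonies, 9.36 and 9.41 in RT101 monolayers and 9.46, 9.49 and 9.41 in RT101 colonies. Colony and monolayer arrays overlapped in both lines. The change was 0.22 in bFGF-JB6 colonies (95% interval -0.027 to 0.47) and 0.07 in RT101 colonies (95% interval -0.21 to 0.35). Without the 2 arrays of raised 3' signal the bFGF-JB6 change was 0.44 (adjusted p = 0.00236).

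Serpinh1, the collagen chaperone HSP47, was the only 1 of the 10 genes to fall in either colony comparison. Its signal (probe set 1456733_x_at) was 10.54 and 10.62 in RT101 monolayers and 10.15, 10.16 and 10.12 in RT101 colonies, 10.25, 10.19 and 10.24 in bFGF-JB6 monolayers and 10.52, 10.45 and 10.25 in their colonies. RT101 monolayers were highest and RT101 colonies lowest, with every array outside the range of the bFGF-JB6 arrays, whose colonies lay just above their monolayers. The fall in RT101 colonies was -0.44 (SE 0.095, adjusted p = 0.0026), the bFGF-JB6 change was 0.18 (adjusted p = 0.13), and the lines differed by -0.62 (SE 0.13, adjusted p = 0.00229). A second probe set read -0.49 in RT101 colonies (adjusted p = 0.064 over all probe sets) and was not called. By that probe set the difference between lines was -0.56 and was not called either (adjusted p = 0.127).

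Of 20 other listed enzymes and chaperones of collagen folding in the endoplasmic reticulum, 15 were measured. In bFGF-JB6 colonies 10 rose and 1 fell (median 0.38), where 14.1% of all genes rose and 15.3% fell. In RT101 colonies 7 rose and 3 fell (median 0.30), where 17.0% and 15.4% did. The peptidyl-prolyl isomerase Fkbp7 rose by 0.75 and 0.97 in the 2 lines (adjusted p = 0.000117 and 2.59e-05), and P3h3, of the prolyl 3-hydroxylase family, by 0.58 and 0.76. Kdelr3, a receptor that returns proteins to the endoplasmic reticulum, rose by 0.82 in bFGF-JB6 colonies. Sparc, which encodes a collagen-binding protein, fell by 0.59 in bFGF-JB6 and by 0.43 in RT101 colonies. Ctage5, whose product helps export large cargo such as procollagen, fell by 0.84 in RT101 colonies, and the disulfide isomerase Pdia3 rose there by 0.94. Pdia3 was also called higher in bFGF-JB6 colonies, a call lost without monolayer replicate 1 or 2 or colony replicate 1 or 2 (adjusted p 0.0722 to 0.108).

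Pcolce and Bmp1, which act together on the C-propeptide, rose together in RT101 colonies from low monolayer levels. Pcolce signal (probe set 1437165_a_at) was 10.62 and 10.63 in RT101 monolayers and 11.59, 11.73 and 11.70 in RT101 colonies, beside 11.86, 11.78 and 11.79 in bFGF-JB6 monolayers and 11.80, 11.74 and 11.87 in their colonies. RT101 monolayers lay far below all other arrays, RT101 colonies came next, just under the bFGF-JB6 arrays, and the 2 bFGF-JB6 groups overlapped. Its change was 1.05 in RT101 colonies (SE 0.087, 2.07-fold, adjusted p = 6.93e-07) and -0.0064 in bFGF-JB6 colonies (95% interval -0.17 to 0.16), a difference of 1.05 (SE 0.12, adjusted p = 1.42e-05). The second Pcolce probe set gave 1.19 in RT101 colonies and, unlike the brightest, a call of 0.40 in bFGF-JB6 colonies (adjusted p = 0.0154 over all probe sets).

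Bmp1 (probe set 1426238_at) read 6.77 and 6.75 in RT101 monolayers and 7.80, 7.83 and 7.65 in RT101 colonies. It read 8.33, 8.0 and 8.13 in bFGF-JB6 monolayers and 8.37, 8.33 and 8.16 in their colonies. The order was the same as for Pcolce, with RT101 monolayers below RT101 colonies, and these below the bFGF-JB6 groups, which overlapped. Bmp1 rose by 1.0 in RT101 colonies (SE 0.11, adjusted p = 1.05e-05), against 0.14 in bFGF-JB6 colonies (95% interval -0.078 to 0.35), and the lines differed by 0.86 (SE 0.15, adjusted p = 0.000635). That difference had an adjusted p of 0.0633 with the mean of the 3 Bmp1 probe sets. A second probe set rose by 1.37 in RT101 colonies (adjusted p = 0.0043), and another, between 3.58 and 4.34 on all arrays, was called in bFGF-JB6 colonies at 0.41 (adjusted p = 0.0163). Of the other procollagen proteinases and enhancers, 3 of 6 were measured, and the second enhancer Pcolce2 fell by 1.07 in bFGF-JB6 colonies (adjusted p = 2.54e-05).

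In the test of the difference between the lines' colony changes, 5 of the 10 enzymes were called, 3 with the more positive change in RT101 cells (Loxl1, Pcolce and Bmp1) and 2 with the more positive change in bFGF-JB6 cells (Lox and Serpinh1). Over all genes 27.7% were called, 15.0% in the first direction and 12.7% in the other. For Plod1, Plod2, Plod3, P4ha1 and P4ha2 the interval of the difference included 0.

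The fibrillar collagen chains on which these enzymes act were measured for 9 of 11 genes. In bFGF-JB6 colonies 5 of the 9 rose and 0 fell (median 0.37), against 14.1% and 15.3% of all genes. In RT101 colonies 4 rose and 1 fell (median -0.01), against 17.0% and 15.4%. In monolayers 5 were higher and 1 lower in RT101 than in bFGF-JB6, against 23.2% and 21.2% of all genes, and in colonies 4 were higher and 0 lower, against 22.7% and 20.7%. These counts take the brightest probe set, and second probe sets of Col1a1 and Col1a2 were called lower in RT101 colonies. Col3a1, the chain of type III collagen, read 9.58 and 9.49 in RT101 monolayers and 12.32, 12.43 and 12.38 in RT101 colonies, beside 10.00, 9.83 and 10.04 in bFGF-JB6 monolayers and 10.47, 10.44 and 10.32 in their colonies. RT101 monolayers were lowest and RT101 colonies far above all other arrays. The change was 2.84 in RT101 (SE 0.095, adjusted p = 1.53e-10) and 0.46 in bFGF-JB6 colonies (adjusted p = 0.00109), a difference of 2.38 (adjusted p = 2.32e-08).

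The type I chains moved less. Col1a1 read 8.78, 8.63 and 8.92 in bFGF-JB6 monolayers, 9.64, 9.69 and 8.76 in their colonies, 8.25 and 8.45 in RT101 monolayers and 9.18, 9.04 and 8.90 in RT101 colonies. One bFGF-JB6 colony array, replicate 3, lay within the monolayer range, while all RT101 colony arrays lay above theirs. The change was 0.59 (adjusted p = 0.035) and 0.69 (adjusted p = 0.0255) in the 2 lines. The bFGF-JB6 call was lost without monolayer replicate 1 or 2 or colony replicate 1 or 2 (adjusted p 0.0805 to 0.155), and the RT101 call without either monolayer array or colony replicate 1 or 2 (adjusted p 0.0562 to 0.17). Col1a2 rose by 0.41 in bFGF-JB6 colonies (adjusted p = 0.00598) and changed by -0.0062 in RT101 colonies (95% interval -0.25 to 0.23). Between the lines the brightest probe set of neither chain was called. The second Col1a1 probe set was lower in RT101 by -0.51 in monolayers and -0.79 in colonies (adjusted p = 0.0128 and 0.0003 over all probe sets). The second Col1a2 probe set was lower by -0.59 in RT101 colonies (adjusted p = 4.21e-05), and its colony changes differed between lines by -0.64 (adjusted p = 0.00135).

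Among the type V chains, which nucleate type I fibrils, Col5a2 read 8.67, 8.66 and 8.71 in bFGF-JB6 monolayers, 9.22, 9.19 and 9.27 in their colonies, 10.22 and 10.09 in RT101 monolayers and 9.64, 9.60 and 9.52 in RT101 colonies. All RT101 arrays lay above all bFGF-JB6 arrays. It rose by 0.55 in bFGF-JB6 colonies (adjusted p = 0.000117) and fell by 0.57 in RT101 colonies (adjusted p = 0.000166), with a difference of -1.11 (adjusted p = 7.85e-06). A second Col5a2 probe set gave 1.16 and -0.06, so the fall was not called there (adjusted p = 0.85) while the difference between lines was. Col5a1 rose by 0.53 and Col5a3 by 0.66 in RT101 colonies (adjusted p = 0.00257 and 0.013), the latter with an adjusted p of 0.101 without RT101 monolayer replicate 2. In bFGF-JB6 colonies Col5a1 at 0.17 and Col5a3 at 0.23 were not called. The other probe sets did not show these rises as calls: in RT101 colonies 2 of Col5a1 gave 0.27 and 0.23 (adjusted p = 0.096 and 0.205) and 1 of Col5a3 gave 0.10 (adjusted p = 0.625). The Col5a1 probe set 1434479_at was called instead in bFGF-JB6 colonies, at 0.37 (adjusted p = 0.0148). In monolayers Col5a1 was higher in RT101 by 0.49 (adjusted p = 0.00275), but by 0.18 (adjusted p = 0.142) with the mean of its probe sets. Col2a1, Col11a1 and Col11a2 lay between 2.74 and 4.82 on all arrays, near the bottom of the scale, where array folds are compressed. Of these Col2a1 was called in bFGF-JB6 colonies at 0.37 (adjusted p = 0.0196), a call lost without monolayer replicate 3 or colony replicate 3 (adjusted p 0.0671 to 0.0929). Both Col2a1 (0.32, adjusted p = 0.0453) and Col11a2 (0.42, adjusted p = 0.0117) were among the 5 chains higher in RT101 monolayers. With single arrays left out, the Col2a1 call was kept only without bFGF-JB6 monolayer replicate 2, bFGF-JB6 colony replicate 1 or 3 or RT101 monolayer replicate 2, and lost without any 1 of the other 7 (adjusted p 0.0557 to 0.377). The Col11a2 call was lost without RT101 monolayer replicate 1 (adjusted p = 0.072).

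**Figure D3:**
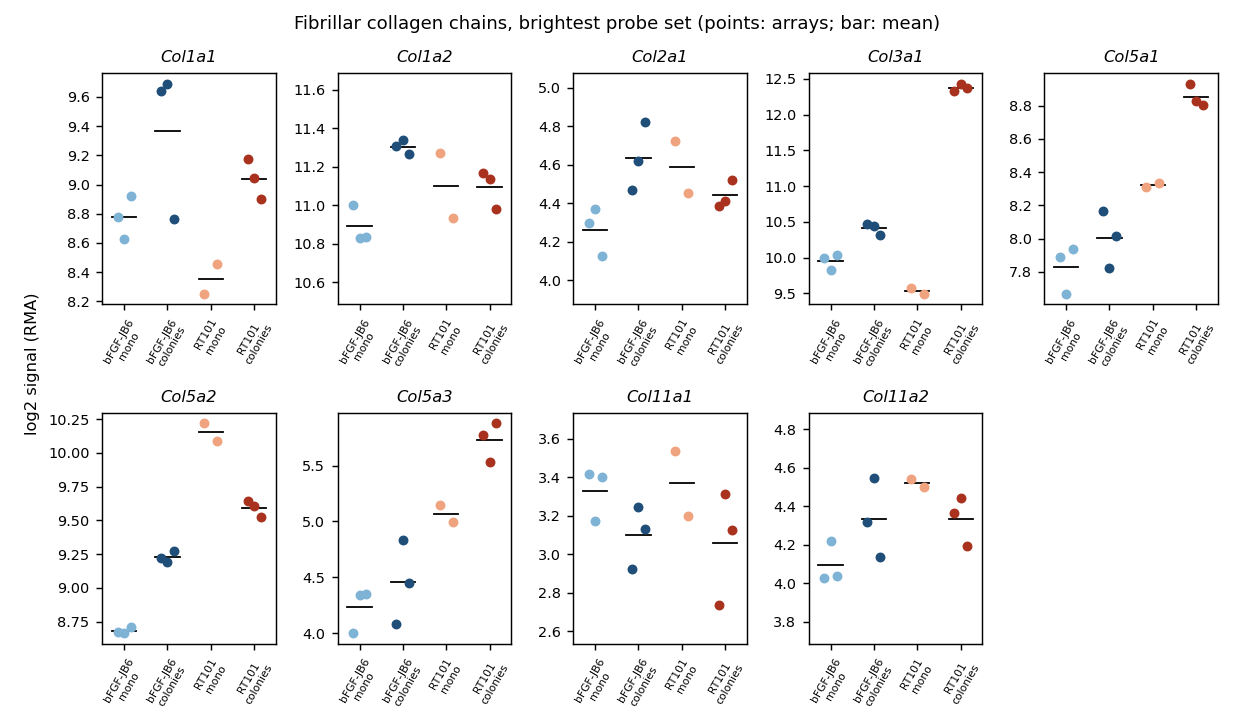
Log2 signal of the brightest probe set of each measured fibrillar collagen chain (vertical axis, own scale per panel) on every array, by group, with bars at the group means. Col3a1 in RT101 colonies stands at 12.32 to 12.43 against 9.49 to 10.47 elsewhere, and Col5a2 moves in opposite directions in the 2 lines.

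Between the lines, 6 of the 10 enzymes differed in monolayers, 1 higher and 5 lower in RT101, where 44.4% of all genes were called, 23.2% higher and 21.2% lower. The arrays of the lines did not overlap for 3 enzymes higher in RT101 and 5 lower, against 33.4% and 27.7% of all genes. Bmp1 was lower by 2.62-fold (log2 -1.39, SE 0.11, adjusted p = 1.95e-07), Pcolce by 2.27-fold (adjusted p = 9.21e-08) and Lox by 3.94-fold (adjusted p = 1.4e-05). The dim Bmp1 probe set 1427458_at read -0.11 there and was not called (adjusted p = 0.53). P4ha2 and Plod1 were lower by log2 differences of -0.57 and -0.54 (adjusted p = 0.000516 and 0.0028). Serpinh1 was the 1 higher, by 0.35 (adjusted p = 0.00713, and 0.0637 without RT101 monolayer replicate 2). Loxl1, Plod2, Plod3 and P4ha1, at 0.20, 0.18, -0.12 and 0.12, were not called.

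In colonies 6 of the 10 also differed, 2 higher and 4 lower in RT101, where 43.3% of all genes were called, 22.7% higher and 20.7% lower. The arrays did not overlap for 2 higher and 5 lower, against 26.1% and 24.3%. Lox was 28.0-fold lower (log2 -4.81, SE 0.22, adjusted p = 8.23e-10), with the RT101 signal near the bottom of the scale, where array folds are compressed. Its second probe set gave -4.20 (18.4-fold lower) and the dim probe set 1437903_at gave -0.41. Loxl1 was higher by 0.60 (adjusted p = 5.22e-05) and Bmp1 lower, at -0.53 (adjusted p = 0.000543). P4ha2 was lower, at -0.37 (adjusted p = 0.00561). Plod1 at -0.27 and Plod3 at -0.28 were not called (adjusted p = 0.0706 and 0.0709). Plod2 at 0.33 and Serpinh1 at -0.27 were called (adjusted p = 0.0232 and 0.0206) but lost the call without bFGF-JB6 colony replicate 2, RT101 colony replicate 1 or RT101 colony replicate 2 (Plod2, adjusted p 0.0538 to 0.109) or without bFGF-JB6 colony replicate 1, bFGF-JB6 colony replicate 2, RT101 colony replicate 2 or RT101 colony replicate 3 (Serpinh1, adjusted p 0.0518 to 0.0847). The Serpinh1 difference was -0.13 (adjusted p = 0.398) by the mean of its probe sets. For Pcolce the brightest probe set gave -0.13 (adjusted p = 0.211), while the second gave -0.87 (adjusted p = 2.91e-05), so the lines' colonies differed by one probe set and not by the other. For P4ha1 the difference between the 2 kinds of colony was -0.0044 (95% interval -0.20 to 0.19) and was not called.

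**Figure D4:**
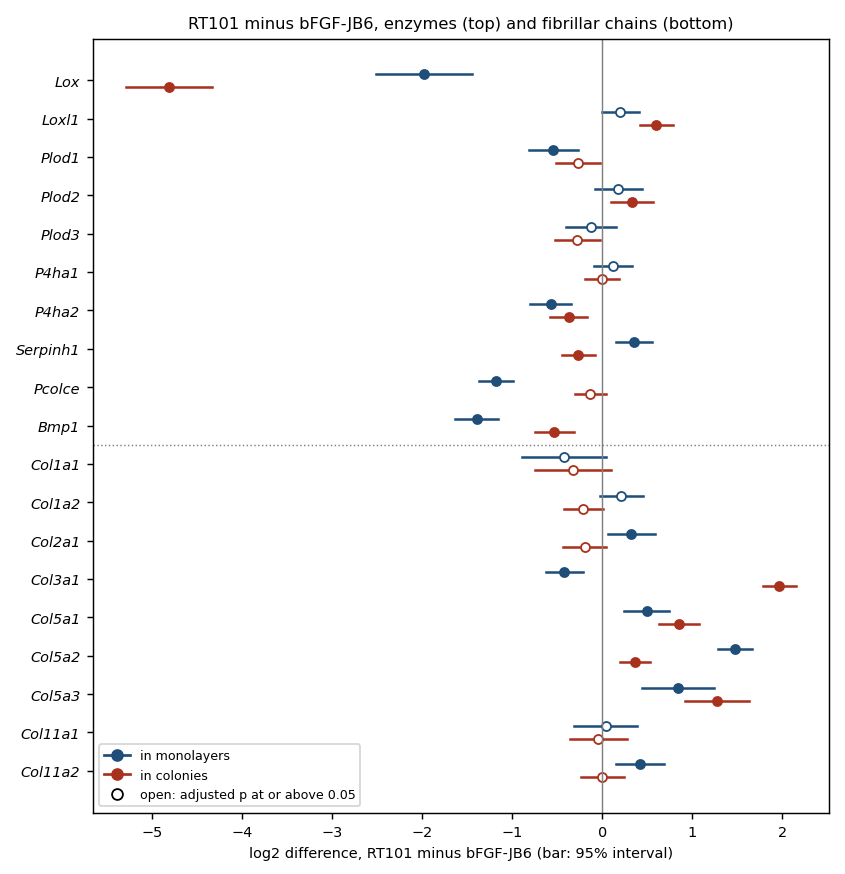
Log2 difference RT101 minus bFGF-JB6 of each enzyme (above the dotted line) and fibrillar chain (below it) in monolayers and in colonies (horizontal axis), with 95% intervals from the limma fit and open circles where the adjusted p was 0.05 or more. Pcolce moves from -1.18 in monolayers to -0.13 in colonies, and Lox from -1.98 to -4.81.

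Of 17 fibril-associated matrix genes, 8 rose and 2 fell in bFGF-JB6 colonies, against 14.1% and 15.3% of all genes. In RT101 colonies 9 rose and 0 fell, against 17.0% and 15.4%. Past 2-fold were 4 and 8 of the rises, against 203 and 423 of all 12393 genes. Dermatopontin (Dpt), which binds collagen fibrils, rose by 3.48 and 5.54, and the type VI chains Col6a1 by 2.33 and 2.30 and Col6a2 by 2.31 and 1.83 (adjusted p of 5.69e-09 or less for each). Periostin (Postn), a matrix protein that promotes collagen maturation, rose by 2.63 in bFGF-JB6 colonies (adjusted p = 4.9e-10) and read -0.04 in RT101 colonies (adjusted p = 0.855). Of 17 non-fibrillar collagen chains, 2 rose and 2 fell in bFGF-JB6 colonies (11.8% each, below the shares of all genes), with Col4a5 at 1.0 and Col8a1 at -1.85. In RT101 colonies 5 rose (29.4%) and 0 fell, led by Col18a1 at 1.63 and Col4a1 at 1.24.

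Of 12 elastic fibre genes, 4 rose and 1 fell in bFGF-JB6 colonies, against 14.1% and 15.3% of all genes. In RT101 colonies 4 rose and 3 fell, against 17.0% and 15.4%. Fibulin 5 (Fbln5), which brings Loxl1 to elastin, rose by 0.77 in bFGF-JB6 colonies (adjusted p = 1.03e-05) and fell by 1.3 in RT101 colonies (adjusted p = 1.64e-07). Ltbp2 rose by 0.96 and 2.55 and Fbln1 by 1.23 and 0.65, while Ltbp1, which tethers latent TGF-beta to the matrix, fell by 1.14 and 0.54. Collagen-degrading enzymes and their inhibitors, 8 genes, split into 3 higher and 4 lower in bFGF-JB6 colonies and 5 higher and 1 lower in RT101 colonies. The shares of all genes were those just given. The collagenase Mmp13 rose by 3.23 in bFGF-JB6 colonies, the gelatinase Mmp2 by 2.26 and 2.13 in the 2 lines and the gelatinase Mmp9 by 2.68 in RT101 colonies. Mmp9 fell by 0.46 in bFGF-JB6 colonies (adjusted p = 0.0136, and 0.0505 without monolayer replicate 1), and the inhibitor Timp1 fell by 1.77 in bFGF-JB6 colonies.

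Hypoxia response genes, a program that in other settings includes Lox, P4ha1, P4ha2 and Plod2, were followed beside the enzymes. Of 17 measured, 7 rose and 3 fell in bFGF-JB6 colonies (median 0.32), where 14.1% of all genes rose and 15.3% fell. In RT101 colonies 4 rose and 6 fell (median 0.03), where 17.0% and 15.4% did. Ndrg1 rose by 1.35 and fell by 1.21, the hexokinase Hk2 rose by 0.83 and fell by 1.37, and the oxidase Ero1a rose by 0.55 and fell by 1.76 in bFGF-JB6 and RT101 colonies (adjusted p of 0.000109 or less for each). The difference between lines was -2.56 for Ndrg1, -2.20 for Hk2 and -2.31 for Ero1a (adjusted p = 3.68e-08, 1.3e-07 and 1.38e-08). Bnip3, a mitophagy gene, rose in both kinds of colony, by 0.78 and 0.38 (adjusted p = 5.43e-05 and 0.0196), the RT101 call being lost without RT101 monolayer replicate 1 or RT101 colony replicate 1 (adjusted p 0.0645 to 0.165). The histone demethylase Kdm3a rose by 0.71 in bFGF-JB6 colonies (adjusted p = 2.47e-05) and read 0.25 in RT101 colonies (adjusted p = 0.0628). Of the enzymes named above, P4ha1 and P4ha2 were called higher in both kinds of colony. P4ha1 in RT101 and P4ha2 in bFGF-JB6 colonies passed only narrowly (adjusted p = 0.0424 and 0.0335). Lox rose by 3.06 in bFGF-JB6 colonies and read 0.23 in RT101 colonies (adjusted p = 2.3e-07 and 0.561). Plod2 read 0.18 and 0.34 in the 2 lines (adjusted p = 0.238 and 0.0482). All 17 measured mitosis genes fell in bFGF-JB6 colonies (median -1.15), and 6 rose and 3 fell in RT101 colonies, against the same shares of all genes. Whether the enzymes' changes depend on growth rate or hypoxia was not tested.

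The 2 arrays with raised 3' Gapdh signal were set against the other arrays of their groups for these genes. RT101 colony replicate 3, without raised 3' signal, also lay below its group's other arrays for most of these probe sets. Whether the deviations go with the 3' signal was not tested. On bFGF-JB6 colony replicate 3 the Gapdh control probes for the 3' end exceeded those for the 5' end by 0.35, and on bFGF-JB6 monolayer replicate 1 by 0.19, against -0.08 to -0.01 on the other 9 arrays. On colony replicate 3, 16 of the 18 enzyme probe sets lay below the mean of the other 2 arrays of the group (median -0.28), where 46.1% of 22626 probe sets did. The lowest were the Bmp1 probe set 1427457_a_at at -1.28 and the second P4ha1 probe set at -1.21. On monolayer replicate 1, 3 of the 18 lay below (median 0.18), where 46.9% of all probe sets did. A low colony replicate 3 and a high monolayer replicate 1, the case for most of these probe sets, each lower the measured bFGF-JB6 colony change. The brightest Plod2 (0.24) and Pcolce (0.11) probe sets on colony replicate 3 went the other way. So did the second probe sets of Lox (-0.45), P4ha1 (-0.47) and Serpinh1 (-0.16) on monolayer replicate 1. Without the 2 arrays the bFGF-JB6 changes of Serpinh1 (0.27, adjusted p = 0.0284) and Bmp1 (0.29, adjusted p = 0.0377) were called along with that of Plod3. The change of Lox was 3.0 to 3.16 when any 1 array was left out.

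**Figure D5:**
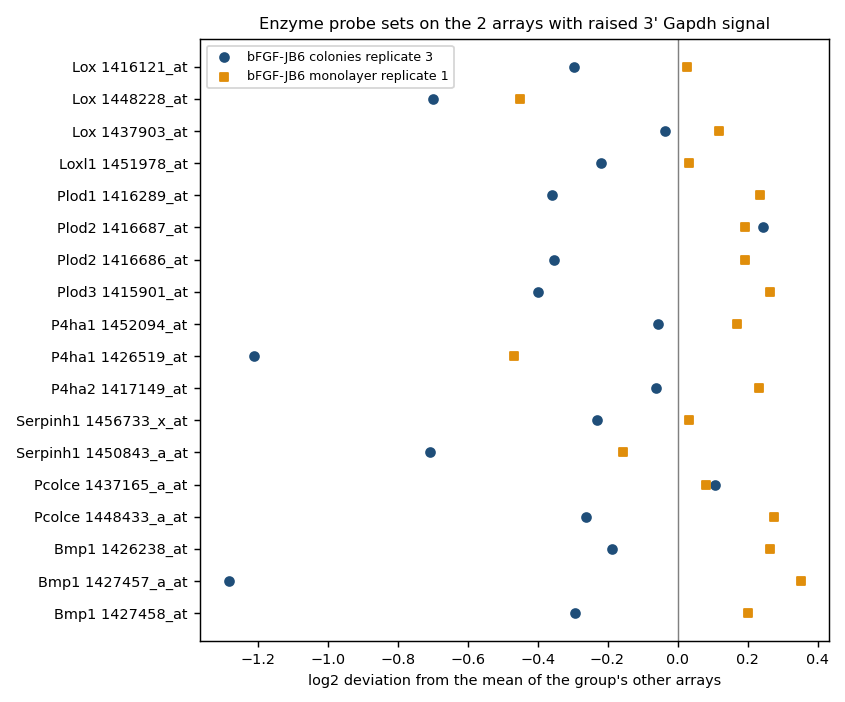
Deviation of each of the 18 enzyme probe sets from the mean of the other arrays of its group (log2), on bFGF-JB6 monolayer replicate 1 and bFGF-JB6 colony replicate 3, the 2 arrays with raised 3' Gapdh signal. On colony replicate 3, 16 points lie below 0, down to -1.28, and on monolayer replicate 1 only 3 do.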

How the data were processed

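Per probe set, the deposited values are log2 signals that the authors summarised by RMA (per the submitters' processing notes, with no version). RMA corrects background, gives arrays a common distribution and summarises probes. It makes no detection calls, compresses folds of weak signals, and leaves no counts, so the number of arrays limits the precision. Values were used as deposited.

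Of 22690 probe sets, 64 were controls, 20380 named 1 gene, 691 several and 1555 none. RefSeq's gene table held the gene number of 20351 of the 20380, and not of 29. Where a gene had several probe sets, the one brightest on average stood for it, which left 12393 genes. Control probe sets and those naming several genes or none were left out.

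With limma 3.58.1 in R 4.3.3, 1 model with group as its only term was fitted to all 11 arrays, and eBayes moderated the variances (7 residual and 6.12 prior degrees of freedom). P-values were two-sided, Benjamini-Hochberg adjusted over all genes (for single probe sets, over 20380), and called under 0.05. SE and the 95% interval come from the same fit, and a 2-fold minimum was counted beside the calls. The procedure was tested on simulated data.

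Named are the 10 enzymes, the measured fibrillar chains, and up to 4 called members per colony comparison of each other list with the largest changes. Lox, P4ha1, P4ha2 and Plod2 among the hypoxia genes and single probe sets are named besides. The enzymes, lists and tests were chosen with earlier results of these data known. Of 192 listed genes, 171 were measured. Alternatives were a replicate block (from titles or from description letters), a gene's mean over its probe sets, each probe set tested by itself, a filter at the median level, cyclic loess, median centring, a variance trend with robust eBayes, a fit of only the groups compared, and fits without single arrays or without the 2 arrays of raised 3' signal. Promoters are RefSeq's, on GRCm38.p6, matched by symbol for 6 of the 10 enzymes. Plots used Python 3.11.15 and matplotlib 3.10.9.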

Additional observations from a re-analysis of the deposited data

Results flagged for a closer look

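The change from monolayer to colonies differed between RT101 and bFGF-JB6 cells, by limma's test of the difference itself, for 5 of the 10 enzymes and 3 of the 9 fibrillar chains. Among all genes 27.7% were called in that test. The RT101 change minus the bFGF-JB6 change was -2.83 for Lox, 0.40 for Loxl1, -0.62 for Serpinh1, 1.05 for Pcolce and 0.86 for Bmp1 on the log2 scale (adjusted p = 2.15e-05, 0.0332, 0.00229, 1.42e-05 and 0.000635). All 3 bFGF-JB6 colony arrays were above their monolayers for Lox, and all 3 RT101 colony arrays were above theirs for Loxl1, Pcolce and Bmp1 and below theirs for Serpinh1. By its second probe set the Serpinh1 difference was -0.56 and was not called (adjusted p = 0.127 over all probe sets).

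Among the chains the difference was 2.38 for Col3a1, -1.11 for Col5a2 and -0.52 for Col2a1 (adjusted p = 2.32e-08, 7.85e-06 and 0.0301). Col2a1 lay between 4.13 and 4.82 on all arrays, near the bottom of the scale, and its adjusted p was 0.0505 to 0.17 without bFGF-JB6 monolayer replicate 3, bFGF-JB6 colony replicate 3, RT101 monolayer replicate 1 or RT101 colony replicate 1 or 2. Groups of 2 or 3 arrays were too small to test for single outlying arrays.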

How the results depend on the processing

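Of 1035 values of single enzymes under the alternatives, 948 stayed on the same side of the threshold, 65 lost and 22 gained a call, and no called value changed sign. Uncalled values crossed 0 in 11 cases, from -0.08 to 0.20. In 26 of 50 combinations of enzyme and comparison, direction and side of the threshold held under every alternative, 19 of them called, among them Lox in every comparison except RT101 colonies against monolayer, where it was not called. The filter at the median level dropped Lox, so that alternative gave no value for it. Enzymes called in bFGF-JB6 colonies numbered 2 with only the groups compared and 8 without the 2 arrays of raised 3' signal, and 2 to 7 without single arrays. In the other comparisons leaving out 1 array gave 6 to 8 (RT101 colonies), 4 to 5 (difference between lines), 5 to 6 (monolayers) and 4 to 8 (colonies between lines). Tested separately, 5474, 6037, 8438 and 8269 of 20380 probe sets were called in bFGF-JB6 colonies, RT101 colonies, monolayers and colonies between lines, a count over more features than the 12393 genes.

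By title, 5 of 15 same-numbered pairs and 11 of 30 differently numbered pairs of arrays correlated over 0.1 in their deviations. The median r was 0.01 and 0.004. By letter, 8 of 15 same-letter pairs and 8 of 30 other pairs did, with a median r of 0.11 and -0.04. Title numbers thus showed no sign of pairing, while same-letter pairs correlated more often than others. Deviations from the mean of a small group are not independent, so these counts cannot decide whether arrays were paired. With the title numbers as a replicate block, 3550 genes and 5 enzymes were called in bFGF-JB6 colonies, and 6 enzymes in RT101 colonies. With the letters as the block these were 3686, 5 and 6. The RT101 calls lost under the blocks were those of Plod2 (adjusted p = 0.0521 by title and 0.0795 by letter) and P4ha1 (0.0589 and 0.0836). The difference between the lines for Loxl1 had an adjusted p of 0.0566 by letter. Levels near the lower quartile, as of Lox in RT101 cells, limit what folds can show.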
